A study of Homo sapiens with 12 samples.

Results

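Expression of 68 genes of the mitogen-activated protein (MAP) kinase cascade and of the phosphatases linked to it was compared between HEK293 cells given a miR-1825 mimic, a synthetic copy of that microRNA, and HEK293 cells that had received a control RNA. The genes were chosen by symbol: named rows that begin with PPP1 to PPP6, MAPK, MAP2K, MAP3K, MAP4K or DUSP followed by a digit, with no hyphen, plus ANKRD52, a subunit of protein phosphatase 6. They are 68 of 14884 named genes on the array, and 66 of them are protein-coding. No symbol beginning with PPP1 to PPP6 fell among the 68, so those subunits were not analysed here, and ANKRD52 is the only serine-threonine phosphatase subunit among the 68. The set therefore consists of 36 MAP kinases of the 4 tiers, 4 partner proteins, 24 dual-specificity phosphatases (DUSPs), ANKRD52 and 3 relatives that are pseudogenes or lack a kinase domain. The array reports transcript clusters, each a set of probes for 1 gene or transcript, and a gene with several was represented by the cluster of highest mean.

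HEK293 is an established line of human embryonic kidney cells transformed with adenovirus DNA. Both groups of 6 arrays came from this line, and both were transfected with RNA at 5 nM by the HiPerfect reagent and harvested after 24 h. The mimic group received Syn-hsa-miR-1825 and the control group received AllStars Negative Control siRNA. Untransfected cells were not analysed here, so an effect that both RNAs share cannot be seen. Nothing in the labels shows that replicates were separate cultures; p-values therefore reflect the spread between these samples alone, and that spread may be technical.

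MAP kinase signalling runs through tiers of kinases that phosphorylate each other in turn: MAP4Ks act on MAP3Ks, these on MAP2Ks, and these on the MAP kinases themselves, which include the ERK, JNK and p38 families. Dual-specificity phosphatases remove phosphate from both the threonine and the tyrosine of an activated MAP kinase, and several of their genes are switched on by the same pathway. Protein phosphatase 6 is a serine-threonine phosphatase built from a catalytic subunit, a regulatory subunit and an ankyrin-repeat subunit such as ANKRD52. A microRNA acts through base pairing between its seed, bases 2 to 8, and sites in mRNAs, and usually lowers their level.

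The mature miR-1825 is shown because its seed is the sequence that the transfected mimic adds to the cell. Beside it is the only other distinct mature sequence in the RefSeq table used here (GRCh38.p14) that shares its bases 2 to 7. That table may not hold every human microRNA, so further relatives may exist. Capitals mark the seed.
hsa-miR-1825: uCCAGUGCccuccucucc
hsa-miR-199a-5p: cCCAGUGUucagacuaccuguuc
No other mature sequence among the 2545 entries of that table shared all of bases 2 to 8 with miR-1825. It is 18 bases long and is encoded at chr20:32237830-32237847 (GRCh38.p14, plus strand), within the span of the protein-coding gene POFUT1. A transcript that pairs with the whole seed carries the letters GCACTGG in its DNA form. Sites in the members' transcripts were not analysed here.

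Over the whole array 53617 transcript clusters were tested with limma, and 6 of them, 0.0112%, passed an adjusted p of 0.05. The deposited values are log2 expression values with array medians between 4.44 and 4.51, and their correlation between arrays averaged 0.992 within groups and 0.991 between groups. Their background level is unknown, so the median of all clusters, 4.48, serves below as the mark of a low value. Of the kidney progenitor and HEK293 markers PAX2, LHX1, EYA1 and VIM, all 4 measured lay above that median, with a mean level of 6.90 to 7.03 in controls and 6.89 to 7.01 after the mimic. Of the fibroblast markers 1 of 2 (LUM) lay above it, with a mean of the pair from 4.09 to 4.27 in controls and from 4.10 to 4.30 after the mimic, and of the leukocyte markers 2 of 4 (CD68 and NKG7), with 4.40 to 4.72 and 4.43 to 4.63, while DCN, CD14 and LYZ lay below. The 8 measured markers of epithelial cancer lines, 5 of them above the median, had a mean level of 5.68 to 5.85 in controls and 5.60 to 5.75 after the mimic, with CLDN7 and KRT18 lower at an unadjusted p under 0.05; their part in the results below was not tested.

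No member passed the limma test over all clusters, at an adjusted p of 0.05 or of 0.1, where 0.0112% of all clusters and 0.0% of named genes passed at 0.05. At an unadjusted p under 0.05 there were 6 of 68 members, or 8.82%, against 10.8% of all clusters and 10.9% of named genes, so the members were no richer in small p-values than the array as a whole. The 6 comprised 3 higher (MAP4K5, MAP3K2 and DUSP26) and 3 lower (ANKRD52, DUSP9 and MAP2K3) after the mimic, 4.41% each way. Of all clusters 5.36% were higher and 5.4% lower at that p, and of named genes 6.69% and 4.19%. Differences were small throughout: the median size was 0.04 on the log2 scale, the largest was 1.18-fold, and 0 members reached 1.5-fold. The median log2 fold change (mimic minus control) was 0.01 for the members and 0.00 for all named genes. Of the 68 members, 37 (54.4%) had higher and 31 lower means, where 46.6% of all clusters and 50.1% of named genes had higher means. The members' split became 30 higher and 38 lower after quantile normalization and 43 and 25 with arrays centred on their medians.

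The 95% interval of the log2 fold change lay entirely between -0.2 and 0.2 in 32 of 68 members, and in 6361 of 14884 named genes. The SD between arrays of a group had a median of 0.10 log2 units over the members, against 0.10 over named genes whose mean reached the median cluster, and ran from 0.04 (MAP2K1) to 0.26 (MAP3K12). A mean at or above 4.48 was found for 62 of the 68 members (91.2%), against 71.9% of named genes, and 40 lay in the brightest 25% of clusters, which begin at a mean of 6.29. The 6 members under 4.48 were MAPK10, MAP3K19, DUSP6, DUSP21, MAP2K4P1 and MAP3K7CL.

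**Figure D1:**
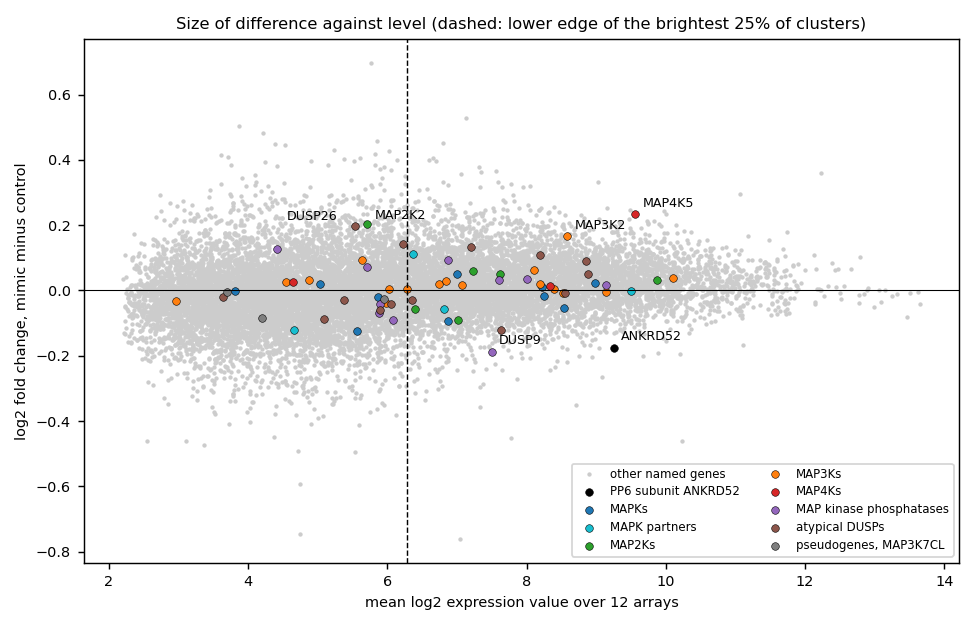
Mean log2 expression value over 12 arrays (x axis) against log2 fold change, mimic minus control (y axis), with the 68 members coloured by role and the other named genes in grey; the dashed line marks the lower edge of the brightest 25% of clusters at 6.29. The members lie within the cloud of other genes, with MAP4K5 at 0.23 and DUSP9 at -0.19 as their extremes.

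A test limited to the brightest 25% of clusters, an alternative to the test over all clusters, gave 3 calls among the 40 members it held, or 7.5%, against 242 of 13405 clusters (1.81%) and 101 of 6432 named genes (1.57%). MAP4K5 and MAP3K2 were called higher and ANKRD52 lower, where 1.42% of those clusters were called higher and 0.38% lower. The list of members was drawn up when earlier results of these arrays were known, and ANKRD52 was added to it by name. Its call and that of MAP4K5, which the rule also names, are therefore descriptions, and the count of 3 is not evidence about the family.

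MAP4K5, a kinase of the germinal centre kinase family that acts at the top of the cascade towards JNK, showed the largest difference of the 68. Its log2 values on control arrays 1 to 6 were 9.45, 9.48, 9.49, 9.47, 9.40 and 9.38. On mimic arrays 1 to 6 they were 9.67, 9.72, 9.74, 9.67, 9.65 and 9.63. Every mimic array lay above every control, and the spread within each group was narrow. The mean went from 9.44 ± 0.04 to 9.68 ± 0.04 (SD, n = 6 each), 1.18-fold, with a log2 fold change of 0.23 and a 95% interval from 0.15 to 0.32. The limma adjusted p was 0.152 over all clusters, 0.0413 among the brighter clusters with means from the median up and 0.00727 in the brightest 25%. In the brightest 25% it stayed called without any 1 of the 12 arrays, with adjusted p values between 0.0144 and 0.0239. A replicate block there gave MAP4K5 a limma adjusted p of 0.0464, close to the threshold.

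The other 2 MAP4Ks measured had estimates near 0. MAP4K4, which is widely expressed and also leads to JNK, had a log2 fold change of 0.01 (95% interval -0.07 to 0.10) that turned negative after quantile normalization, an interval that ends below the lower bound of 0.15 for MAP4K5. MAP4K1, a kinase known mainly from blood cells, had low values, with a mean of 4.64 ± 0.19 in controls and 4.66 ± 0.17 after the mimic. Whether MAP4K5 differed from them in its response was not tested.

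MAP3K2, a kinase known to activate the ERK5 branch through MAP2K5, was the MAP3K with the largest difference. Control arrays 1 to 6 read 8.38, 8.5, 8.59, 8.51, 8.56 and 8.46 on the log2 scale. Mimic arrays 1 to 6 read 8.63, 8.68, 8.74, 8.62, 8.62 and 8.69. The groups did not overlap, although control replicate 3 at 8.59 came close to mimic replicates 4 and 5 at 8.62. The mean rose from 8.5 ± 0.07 to 8.67 ± 0.05 (n = 6 each; log2 fold change 0.17, SE 0.05, limma adjusted p = 0.048 among the brightest 25%). Over all clusters the limma adjusted p was 0.258. That call was lost in 10 of the 12 fits that left out 1 array, remaining without control replicate 3 or 5 only, and it was also lost after quantile normalization (0.0552) and with arrays centred on their medians (0.0636).

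The other genes of the ERK5 branch showed smaller differences. MAP3K3, the closest relative of MAP3K2, had a log2 fold change of 0.06 (95% interval -0.05 to 0.17), and all 6 of its mimic arrays lay above the control mean. MAP2K5, the kinase between MAP3K2 and ERK5, likewise had 6 of 6 mimic arrays above the control mean and a log2 fold change of 0.06 (-0.06 to 0.18). MAPK7, which encodes ERK5 itself, had 0.05 (-0.08 to 0.18), with 5 of 6 mimic arrays above. None of these 3 had an unadjusted p under 0.05. Estimates for MAP3K3, MAP2K5 and MAPK7 were 0.033, 0.032 and 0.027 after quantile normalization and 0.078, 0.076 and 0.066 with centred arrays. How many genes of the array have such counts above the control mean was not examined, and a shared direction of the branch was not tested.

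Among the 17 MAP3Ks, 13 had higher means as deposited, but the count was 7 of 17 after quantile normalization and 15 of 17 with centred arrays, so the tier has no settled direction. The median log2 fold change was 0.02, and MAP3K2 alone had an unadjusted p under 0.05, 1 of 17 against the array's 10.8%. MAP3K7 (TAK1), which carries signals from cytokine receptors, had a log2 fold change of 0.04 (-0.05 to 0.13). The stress-activated kinases MAP3K5 (ASK1) and MAP3K6 (ASK2) each had 0.02, a difference that turned negative after quantile normalization. MAP3K4, which acts towards p38 and JNK, had 0.01, with a change of sign after quantile normalization and an interval of -0.08 to 0.09. MAP3K20 (ZAK), the kinase that senses stalled ribosomes, had -0.01 (-0.11 to 0.10), with a change of sign with centred arrays.

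The mixed-lineage kinases, MAP3Ks that act mainly towards JNK, also lay close to 0. MAP3K9 had a log2 fold change of -0.04, MAP3K11 of 0.03, and MAP3K10 and MAP3K21 lay within 0.005 of 0 and changed sign with the scaling. The related MAP3K12 (DLK) and MAP3K13 (LZK), known for stress signalling in neurons, had 0.03 and 0.02, the latter turning negative after quantile normalization. MAP3K12 had the widest spread of all members, from 4.39 to 5.22 in controls and from 4.65 to 5.26 after the mimic, so its interval of -0.26 to 0.32 excludes little. MAP3K15 (ASK3) had 0.09, MAP3K8 (TPL2) 0.03 and MAP3K14 (NIK), which acts in the NF-kappa-B pathway, 0.00, with a change of sign after quantile normalization. MAP3K19 was low on every array, with 2.77 as the lowest value and 3.08 as the highest in either group.

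**Figure D2:**
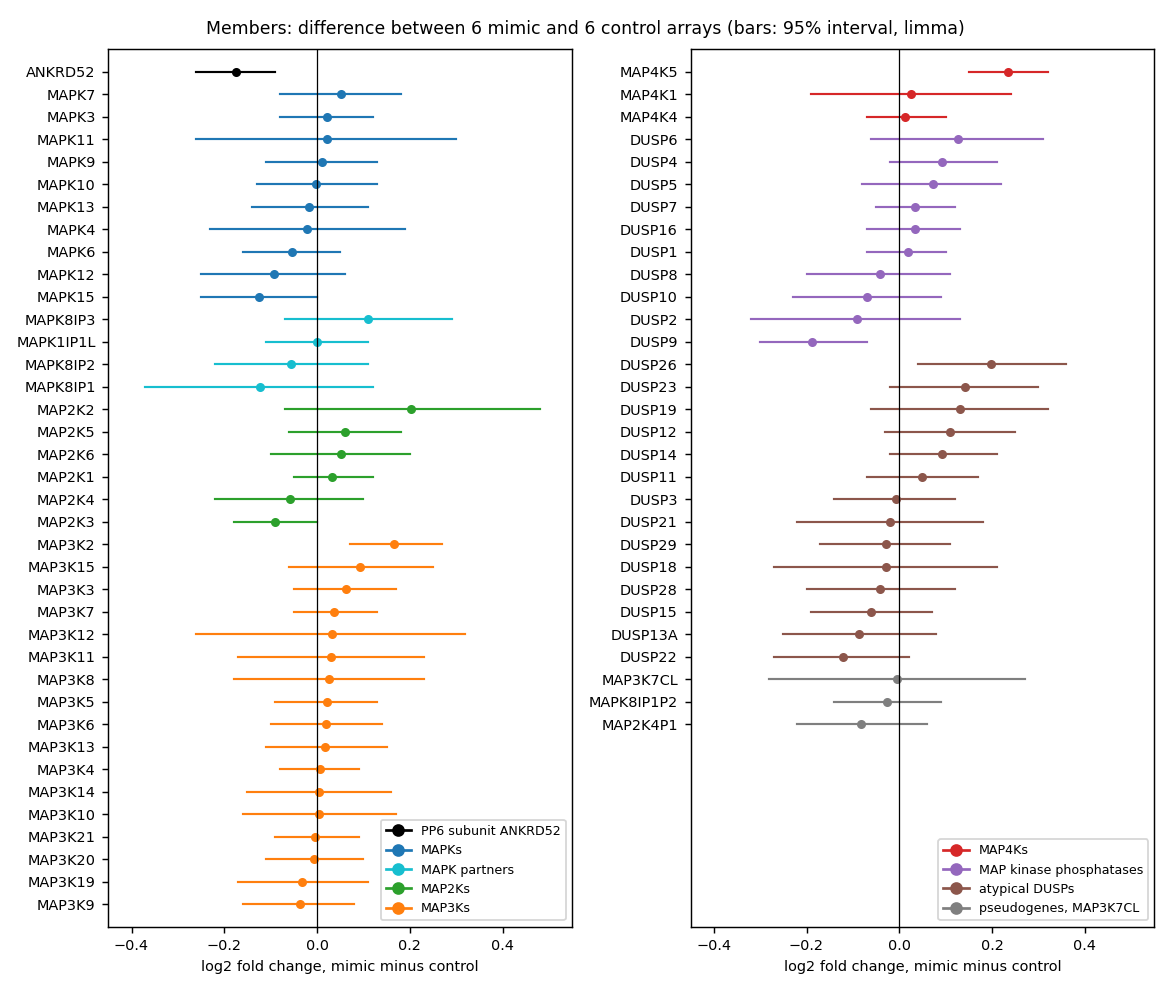
Log2 fold change (x axis, mimic minus control) of each of the 68 members, grouped by role; points are the limma estimates and bars their 95% intervals, from 6 arrays per group. The intervals of MAP4K5, MAP3K2 and DUSP26 lie above 0 and those of ANKRD52 and DUSP9 below it. That of MAP2K3 ends at -0.004 and that of MAPK15 at 0.002, and both are drawn as ending at 0 because the plotted bounds are rounded.

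In the MAP2K tier 6 kinases were measured, 4 with higher and 2 with lower means, and none passed over all clusters or in the brightest 25%. MAP2K3, an activator of p38, read 7.07, 7.10, 7.07, 7.05, 7.03 and 7.07 on control arrays 1 to 6. On mimic arrays 1 to 6 it read 7.0, 7.02, 6.97, 6.88, 7.03 and 6.93. All mimic arrays lay below all controls, but the edges touch: control replicate 5 and mimic replicate 5 both round to 7.03. Its log2 fold change was -0.09 (95% interval -0.179 to -0.004; unadjusted p = 0.0414, limma adjusted p = 0.447 over all clusters and 0.121 in the brightest 25%). MAP2K6, also an activator of p38, had 0.05 (-0.10 to 0.20) and so did not share the lower mean.

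MAP2K1, an activator of ERK, had a log2 fold change of 0.03 with a tight interval of -0.05 to 0.12. MAP2K2, its paralogue, had the largest estimate of the tier, 0.20, but with an interval of -0.07 to 0.48. Its controls ranged from 5.17 to 6.01 with a median of 5.56, and its mimic arrays from 5.69 to 5.97 with a median of 5.78, so the mimic range lay inside that of the controls. Without control replicate 4, the lowest array at 5.17, the estimate was 0.115. Without control replicate 2, the highest, it was 0.28. MAP2K4, which activates JNK, had -0.06 (-0.22 to 0.10).

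Of the 10 MAP kinases themselves, 4 had higher and 6 lower means, and 0 had an unadjusted p under 0.05, against 10.8% of all clusters. None of them passed limma over all clusters or in the brightest 25%. MAPK3 (ERK1) ranged from 8.85 to 9.07 in controls and from 8.95 to 9.05 after the mimic, with a log2 fold change of 0.02 (-0.08 to 0.12). MAPK9, a JNK, had 0.01 (-0.11 to 0.13), and MAPK10, the JNK known mainly from the nervous system, was low at a mean of 3.81 in both groups. The differences of MAPK3, MAPK9 and MAPK10 changed sign with the scaling. The p38 kinases MAPK11, MAPK12 and MAPK13 had log2 fold changes of 0.02, -0.09 and -0.02, with all 3 intervals spanning 0. The atypical kinases MAPK6 (ERK3) and MAPK4 (ERK4), which lack the usual paired activation site, had -0.05 (-0.16 to 0.05) and -0.02 (-0.23 to 0.19).

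MAPK15 (ERK8), a kinase linked to autophagy and cilia, had the smallest unadjusted p of this tier, 0.0529. Its controls ranged from 5.53 to 5.70 with a median of 5.62 and its mimic arrays from 5.27 to 5.57 with a median of 5.55, so the groups overlapped. Mimic replicate 2 at 5.27 stood below the other mimic arrays, which lay between 5.52 and 5.57. The log2 fold change was -0.13 (95% interval -0.253 to 0.002), and -0.08 without mimic replicate 2. A two-sided exact permutation test gave a p of 0.0173. A second, dimmer transcript cluster named MAPK15 had -0.14 with an unadjusted p of 0.219.

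Partner proteins of MAP kinases gave no call. MAPK8IP1, MAPK8IP2 and MAPK8IP3 encode the JIP scaffolds, which hold the JNK cascade together on kinesin cargo. Their log2 fold changes were -0.12 (-0.37 to 0.12), -0.06 (-0.22 to 0.11) and 0.11 (-0.07 to 0.29), so their estimates did not share a sign. MAPK1IP1L had 0.00 in the brighter of its 2 clusters, with a sign that depended on the scaling, and 0.10 (unadjusted p = 0.268) in the other.

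**Figure D3:**
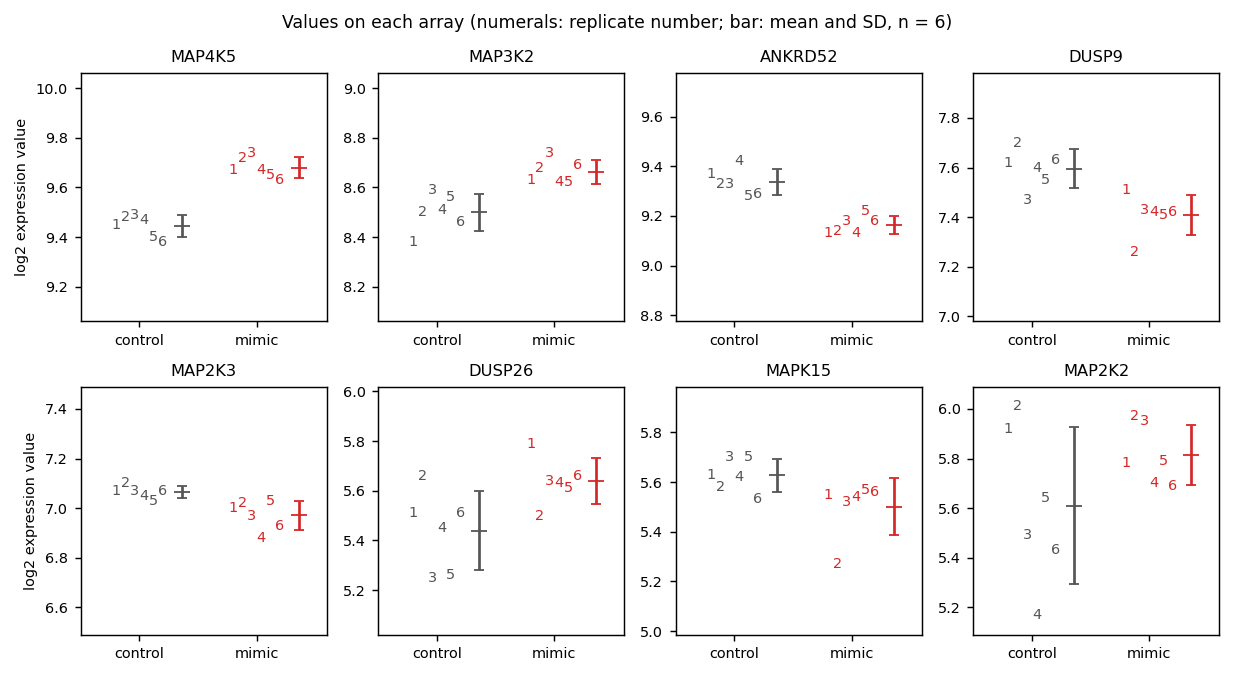
Log2 expression values of 8 members on each array (y axes of equal height, 1 log2 unit), with numerals giving the replicate number and bars the mean and SD of 6 arrays. Control and mimic arrays are apart for MAP4K5, MAP3K2 and ANKRD52, touch for MAP2K3 and overlap for DUSP9, DUSP26, MAPK15 and MAP2K2.

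The classical MAP kinase phosphatases, DUSPs that carry a MAP kinase-binding domain, numbered 10, of which 6 had higher and 4 lower means. Only DUSP9 had an unadjusted p under 0.05, and 0 of 10 passed limma over all clusters or in the brightest 25%. DUSP9, a cytoplasmic phosphatase that acts mainly on ERK, read 7.62, 7.70, 7.47, 7.6, 7.55 and 7.63 on control arrays 1 to 6. On mimic arrays 1 to 6 the values were 7.51, 7.26, 7.43, 7.42, 7.41 and 7.42. All 6 mimic arrays lay below the control mean, and the overlap was confined to mimic replicate 1 at 7.51 and control replicate 3 at 7.47. The mean was 7.59 ± 0.08 in controls and 7.41 ± 0.08 after the mimic, 0.878-fold, with a 95% interval of the log2 fold change from -0.30 to -0.07. The limma adjusted p was 0.261 over all clusters and 0.0557 in the brightest 25%, just outside the threshold. Of the 12 fits there that left out 1 array, 1 called it (0.0475, without control replicate 3), and the highest adjusted p was 0.107, without control replicate 2.

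DUSP6 and DUSP7, the closest relatives of DUSP9, did not share its lower mean. DUSP6, a cytoplasmic phosphatase of ERK whose gene is a common readout of ERK activity, had a log2 fold change of 0.13 (-0.06 to 0.31) at low values, from 4.16 to 4.48 in controls and from 4.21 to 4.65 after the mimic. DUSP7 had 0.03 (-0.05 to 0.12) with all 12 arrays between 7.94 and 8.10. The nuclear phosphatases DUSP4 and DUSP5, also induced by ERK signalling, had 0.09 (-0.02 to 0.21) and 0.07 (-0.08 to 0.22). DUSP1, an early response gene and the classical nuclear phosphatase of p38 and JNK, had 0.02 (-0.07 to 0.10), with a change of sign after quantile normalization, and its arrays lay between 9.07 and 9.21. DUSP2 had -0.09, but without mimic replicate 2, at 5.51 against 6.07 to 6.19 on the other mimic arrays, it had 0.01. The phosphatases that prefer p38 and JNK, DUSP8, DUSP10 and DUSP16, had -0.04, -0.07 and 0.03, each with an interval spanning 0.

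The atypical DUSPs, which lack the MAP kinase-binding domain and act on varied substrates, numbered 14, with 6 higher and 8 lower means. None passed limma, and DUSP26 alone had an unadjusted p under 0.05. DUSP26, known mainly from neural tissue, ranged from 5.25 to 5.66 in controls with a median of 5.48 and from 5.50 to 5.79 after the mimic with a median of 5.64. The groups overlapped through control replicate 2 at 5.66 and mimic replicate 2 at 5.5, although all 6 mimic arrays lay above the control mean. Its log2 fold change was 0.20 (95% interval 0.04 to 0.36; unadjusted p = 0.0206, limma adjusted p = 0.376 over all clusters). It lay below the brightest 25% of clusters and was not tested there.

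DUSP23, a small phosphatase, had a log2 fold change of 0.14 (-0.02 to 0.30) and DUSP22, which is known to promote JNK signalling, had -0.12 (-0.27 to 0.02). In both, 6 of 6 mimic arrays lay on 1 side of the control mean, as they also did for DUSP12 at 0.11 (-0.03 to 0.25) and DUSP19 at 0.13 (-0.06 to 0.32). For these 4 the controls were the wider group: DUSP19 controls ran from 6.86 to 7.43 and its mimic arrays from 7.22 to 7.36. DUSP14 had 0.09 (-0.02 to 0.21). DUSP11, which removes phosphates from RNA 5' ends, had 0.05 (-0.07 to 0.17). DUSP3, a nuclear phosphatase of ERK and JNK, had -0.01 (-0.14 to 0.12), with a change of sign with centred arrays. The remaining DUSP13A, DUSP15, DUSP18, DUSP21, DUSP28 and DUSP29 had estimates between -0.09 and -0.02, with intervals spanning 0. Without control replicate 3, at 6.36 the highest control, DUSP28 had 0.01, and DUSP21 lost its sign after quantile normalization.

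ANKRD52 was lower after the mimic. Control arrays 1 to 6 read 9.37, 9.33, 9.33, 9.42, 9.28 and 9.29 on the log2 scale. Mimic arrays 1 to 6 read 9.13, 9.14, 9.18, 9.13, 9.22 and 9.18. The highest mimic array, replicate 5 at 9.22, lay below the lowest control, replicate 5 at 9.28. The mean fell from 9.34 ± 0.05 to 9.16 ± 0.04 (n = 6 each), 0.886-fold, with a 95% interval of the log2 fold change from -0.26 to -0.09 (limma adjusted p = 0.0285 among the brightest 25% and 0.229 over all clusters). In the brightest 25% it was called in 6 of the 12 fits that left out 1 array, and lost without control replicate 2 or 4 or mimic replicate 1, 2, 3 or 6, with a highest adjusted p of 0.0659. The other ankyrin-repeat subunits of protein phosphatase 6 had log2 fold changes of 0.04 (ANKRD28, 95% interval -0.05 to 0.13) and -0.02 (ANKRD44, -0.15 to 0.12). The interval of ANKRD28 lies wholly above that of ANKRD52, which ends at -0.09, and that of ANKRD44 overlaps it; the difference between the subunits was not tested.

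**Figure D4:**
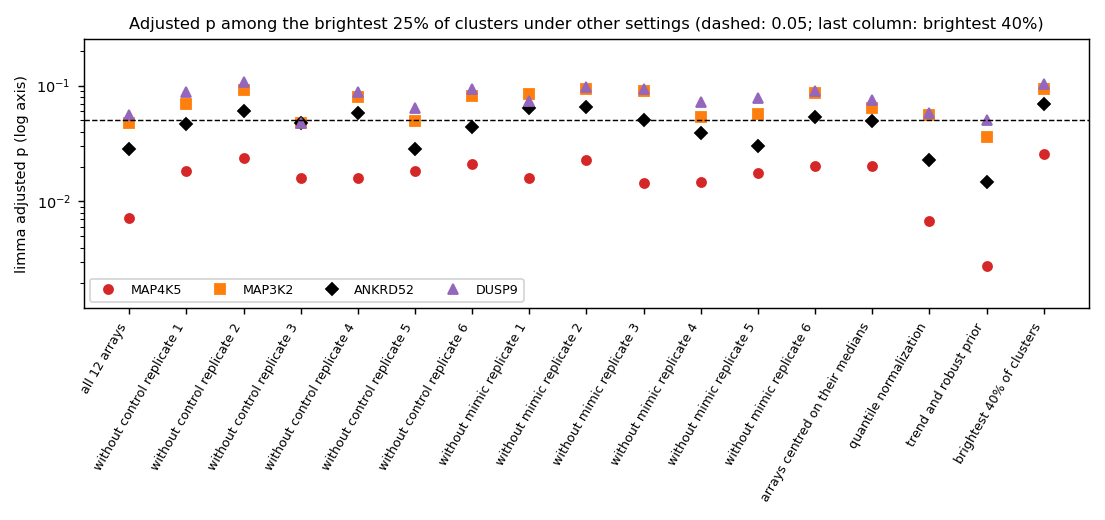
Limma adjusted p (y axis, log scale) of MAP4K5, MAP3K2, ANKRD52 and DUSP9 in the brightest 25% of clusters with all 12 arrays, with each array left out and under other settings; the last column tests the brightest 40%. MAP4K5 lies under the dashed line at 0.05 in every fit shown, while the other 3 genes cross it. The fit with a replicate block is not shown. Its limma adjusted p was 0.0464 for MAP4K5, 0.112 for both MAP3K2 and ANKRD52, and 0.143 for DUSP9.

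Groups of control and mimic arrays did not overlap in 4 of the 68 members (5.88%): MAP4K5 and MAP3K2 higher, ANKRD52 and MAP2K3 lower. The same held for 1.17% of all clusters (0.759% higher, 0.414% lower) and 1.75% of named genes (1.34% higher, 0.403% lower), and for 3.3% of the brightest 25% of clusters, where all 4 members lie and make up 10.0% of the 40. With 2 of the 4 named in the rule, this share is a description.

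Pseudogenes and repeated clusters added little. MAP2K4P1, a pseudogene of MAP2K4, had a log2 fold change of -0.08 (-0.22 to 0.06), and MAP3K7CL, which lacks a kinase domain, had low values on every array, with 4.06 as the highest. For MAPK8IP1P2, a pseudogene of MAPK8IP1, 3 of its 4 clusters held identical values, so they count as 1 measurement (-0.03, -0.14 to 0.09). Transcripts of MAP2K4 and MAPK8IP1 may bind the probes of these copies, so the assignment of signal between them is uncertain. The second clusters of DUSP5 and MAPK8IP1 were dimmer and had log2 fold changes of -0.01 and -0.02.

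Genes of the same pathways outside the 68 were read from 5 lists, and 0 of their measured genes passed limma over all clusters or in the brightest 25%. Of 23 genes for RAS and RAF input 14 were measured, with 4 higher and 0 lower at an unadjusted p under 0.05, where 6.69% of named genes were higher and 4.19% lower. SOS2, an exchange factor that loads RAS with GTP, went from 7.39 ± 0.11 to 7.65 ± 0.15 (log2 fold change 0.25, limma adjusted p = 0.275 over all clusters), and the adaptor GAB1 had 0.21 (0.05 to 0.37). SOS1 had 0.13 and SPRY2, a feedback inhibitor of the pathway, 0.10, so the 4 include activators and an inhibitor. The list's median log2 fold change was 0.01, beside 0.00 for all named genes, and its split of 8 higher and 6 lower means became 6 and 8 after quantile normalization.

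Downstream of the MAP kinases the values were mixed. Of 11 kinases activated by MAP kinases 5 were measured, 1 with a higher and 4 with a lower mean. MKNK2, which phosphorylates the cap-binding protein eIF4E, had -0.15 (-0.27 to -0.03; unadjusted p = 0.0173, limma adjusted p = 0.360) and MAPKAPK5 had 0.10. Of 21 transcription factors and output genes 17 were measured, 0 higher and 1 lower at an unadjusted p under 0.05, with a median of 0.02 and a split of 10 higher and 7 lower means that quantile normalization turned to 7 and 10. The lower one was IER2, an early response gene, at -0.21 (unadjusted p = 0.0462), while ATF2, a target of p38 and JNK, had 0.10. FOS, EGR1, MYC and CCND1 had log2 fold changes of 0.04, 0.07, 0.00 and 0.02, each with an interval spanning 0.

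Phosphatase partners outside the PPP symbols had 14 of 32 listed symbols measured. The 32 hold CIP2A also under its former symbol KIAA1524, so they stand for fewer genes. Of the 14 measured, 2 were higher and 0 lower at an unadjusted p under 0.05, against the same 6.69% and 4.19% of named genes. CIP2A, an inhibitor of protein phosphatase 2A, went from 9.39 ± 0.07 to 9.57 ± 0.07 (log2 fold change 0.18, 95% interval 0.07 to 0.28), with a limma adjusted p of 0.259 over all clusters and 0.0508 in the brightest 25%. MASTL, the mitotic kinase that turns ENSA into another inhibitor of protein phosphatase 2A, had 0.12 (0.01 to 0.23), while ENSA and SET, a further inhibitor, had 0.03 and 0.01. Of 23 other serine-threonine phosphatases, mostly metal-dependent, 5 were measured, and all 5 intervals lay between -0.2 and 0.2. PHLPP2, which dephosphorylates AKT, had 0.04 and PDP1, the mitochondrial pyruvate dehydrogenase phosphatase, 0.03.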

How the data were processed

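The authors deposited 1 log2 value per array and transcript cluster for 53617 clusters. Per the submitters' processing notes, Affymetrix Expression Console was used. Its version, like the background correction, normalization and summarisation, was not given in the sources used here. A log2 scale was read from the values, which run from 1.62 to 14.4. Rows were named through the platform annotation, where 16098 clusters had 1 symbol and 37519 were unnamed here; all 16098 identifiers matched RefSeq (GRCh38.p14).

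Mimic and control arrays were compared with limma (version 3.58.1, under R 4.3.3; linear model with empirical Bayes, without trend or block, two-sided) over all clusters, with Benjamini-Hochberg adjustment and a threshold of 0.05. Fold changes are on the log2 scale. The code was tested on simulated data. Alternatives were other filters, quantile normalization, centring, a trend and robust prior, a replicate block and leaving out each array. An exact permutation test on the difference of means was run on the members alone, as a description and without adjustment. The number of arrays limits the precision.

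The members and lists were chosen with earlier results of these data known. Genes named were ANKRD52, MAP4K5, all MAPK and MAP2K members, up to 3 members per role and up to 2 genes per pathway list with the smallest p, and any member called in the brightest 25% of clusters; other members and listed genes were added after their values were seen.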

Additional observations from a re-analysis of the deposited data

Results flagged for a closer look

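Each of the 68 members was searched in both groups, 136 groups of 6 arrays in all, for a highest or lowest array far from the rest, and 6 such arrays were found where chance gives about 1 group in 20. In 3 of the 6 the array was mimic replicate 2, always as the lowest. It read 5.27 for MAPK15, against 5.52 to 5.57 on the other mimic arrays, 9.81 for MAP2K1, against 9.90 to 9.93, and 5.51 for DUSP2, against 6.07 to 6.19. Mimic replicate 2 was the lowest mimic array for 16 of the 68 members and the highest for 12. Mimic replicate 1 was the highest for MAPK9 at 8.41, against 8.15 to 8.25, and without it the log2 fold change of MAPK9 went from 0.01 to -0.03. Among controls, replicate 4 was the lowest for MAP3K10 at 6.15, against 6.29 to 6.35, and replicate 3 the highest for DUSP28 at 6.36, against 5.97 to 6.05.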

How the results depend on the processing

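The fits of the brightest 40% of clusters and the further fits within the brightest 25% were chosen after seeing the data. Over all clusters, 6 passed; the count was 0 with 1 cluster per named gene, 13 at or above the median, 24 in the brightest 40%, 242 in the brightest 25%, 39 when eBayes used a trend with a robust prior, and 0 to 6 without single arrays. Members called went from 0 to 3 in the brightest 25%, and to 1, MAP4K5, in the brightest 40%, at or above the median and with a trend and robust prior. The 3 calls in the brightest 25% ranged from 1 to 4 without single arrays: 1 without control replicate 2 or 4 or mimic replicate 1, 2, 3 or 6, and 4 without control replicate 3, which adds DUSP9. Same-numbered arrays deviated from their group means with correlations of -0.113 to 0.0841, so no strong shared deviation was seen. These correlations cannot show whether same-numbered samples were handled together. With a replicate block 0 clusters passed over all clusters and 1 member, MAP4K5, in the brightest 25%. The medians of the members and of the 5 pathway lists moved by less than the spread between replicates in all settings run, and no called member reversed. Values below the array medians have unknown background, which limits MAPK10, MAP3K19, DUSP6, DUSP21, MAP2K4P1 and MAP3K7CL.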
